A study of Mus musculus with 26 samples.

Results

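The Cyp2d genes encode cytochrome P450 enzymes of the subfamily that in humans is represented by the drug-metabolising enzyme CYP2D6. They were taken as the rows of a mouse liver gene count table whose Ensembl identifiers match 7 named symbols, Cyp2d9, Cyp2d10, Cyp2d11, Cyp2d13, Cyp2d22, Cyp2d26 and Cyp2d40. Of these, 6 matched a row among the 47643 genes of the table, and Cyp2d13 was not analysed here. The table also held 4 other Cyp2d symbols, Cyp2d12, Cyp2d34, Cyp2d37-ps and Cyp2d41-ps, which were used for comparison.

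Cytochromes P450 are haem enzymes of the endoplasmic reticulum that insert oxygen into drugs, steroids and lipids with electrons passed on by P450 reductase and cytochrome b5. The mouse carries a large cluster of Cyp2d genes, whereas humans carry a single functional one. Cyp2d9 is known as a testosterone hydroxylase that is more abundant in male than in female liver, a bias that depends on the pulsed growth hormone secretion of males and on the transcription factor STAT5b. Human CYP2D6 is known to be activated by the nuclear receptor HNF4A, and work on that gene in mice has tied it to a receptor for bile acids, FXR, encoded by Nr1h4, and to the corepressor that FXR induces, SHP, encoded by Nr0b2.

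The 26 libraries are mRNA sequencing of mouse liver in 5 experiments, each with its own control. C57BL/6J wild-type mice of 8 weeks received either corn oil or TCPOBOP, an agonist of the xenobiotic receptor CAR, with 2 libraries each. C57BL/6J mice of 12 weeks were wild type or carried the Fxr-/- Shp-/- double knockout, with 3 libraries each. C3H/HeN mice of 8 to 10 weeks had sham surgery (time 0 h) or partial hepatectomy (PHx) 48 h before, with 3 libraries each and no genotype stated. These 3 experiments used whole liver of animals fed ad libitum. Hepatocytes were isolated from C57BL/6J wild-type mice of 16 weeks on chow or a 60% high fat diet after a 10 h fast, with 2 libraries each. Whole liver came from C57BL/6J mice of 10 to 12 weeks with floxed Fxr and Shp alleles, fasted for 8 to 10 h, on chow or a cholic acid diet, with 3 libraries each. Floxed alleles are flanked by recombination sites, and the labels name no Cre for these mice, so both of these groups carry them. The labels do not say whether libraries came from separate animals, so the p-values measure only the spread between these libraries.

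Gene counts per library ranged from 13949059 to 70367874. Xist gave 0 to 8 reads and the Y-linked Ddx3y 779 to 6269 reads in each of the 26 libraries. In the knockout livers Nr1h4 was at 61.6, 52.9 and 55.5 CPM, the count scaled to library size, against 147, 153 and 114 in wild type, and Nr0b2 at 0.563, 1.10 and 1.60 CPM against 14.4, 26.9 and 13.3. The hepatocyte markers were detected in every group, at summed levels of 49500 to 132000 CPM over 7 genes. The library labelled corn oil 1 went against its label: Cyp2b10, the classic CAR target, stood there at 3673 CPM, a level near those after TCPOBOP (3421 and 2977 CPM) and far from corn oil 2 (10.0 CPM). Titles of the TCPOBOP samples give 36 h after injection and their source names 6 h. Reads aligned to more than 1 place made up 43.2 to 44.1% of the wild-type libraries and 25.5 to 26.9% of the knockout libraries, and 16.6 to 25.1% in all other groups.

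The 6 genes lie on mouse chromosome 15 (build GRCm38, GENCODE M21 annotation) in an interval of 423768 bp, chr15:82370527-82794294, that also holds many pseudogenes: 19 of the 39 annotated genes inside it are pseudogenes and 8 are protein coding. In order along the chromosome they are Cyp2d22 (chr15:82370527-82380260, minus strand), Cyp2d11 (chr15:82389154-82394022, minus), Cyp2d10 (chr15:82402846-82407195, minus), Cyp2d9 (chr15:82433437-82456845, plus), Cyp2d40 (chr15:82759833-82764183, minus) and Cyp2d26 (chr15:82790101-82794294, minus). All 6 are annotated as protein coding. The coding sequences of Cyp2d9, Cyp2d10 and Cyp2d11 were close copies, with 92.5% identity between Cyp2d9 and Cyp2d10, 94.7% between Cyp2d10 and Cyp2d11 and 93.3% between Cyp2d9 and Cyp2d11, counted over aligned bases without gaps. Cyp2d22 and Cyp2d26 were more distant, at 78.5% to each other and 78.9% and 82.4% to Cyp2d9.

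**Figure D1:**
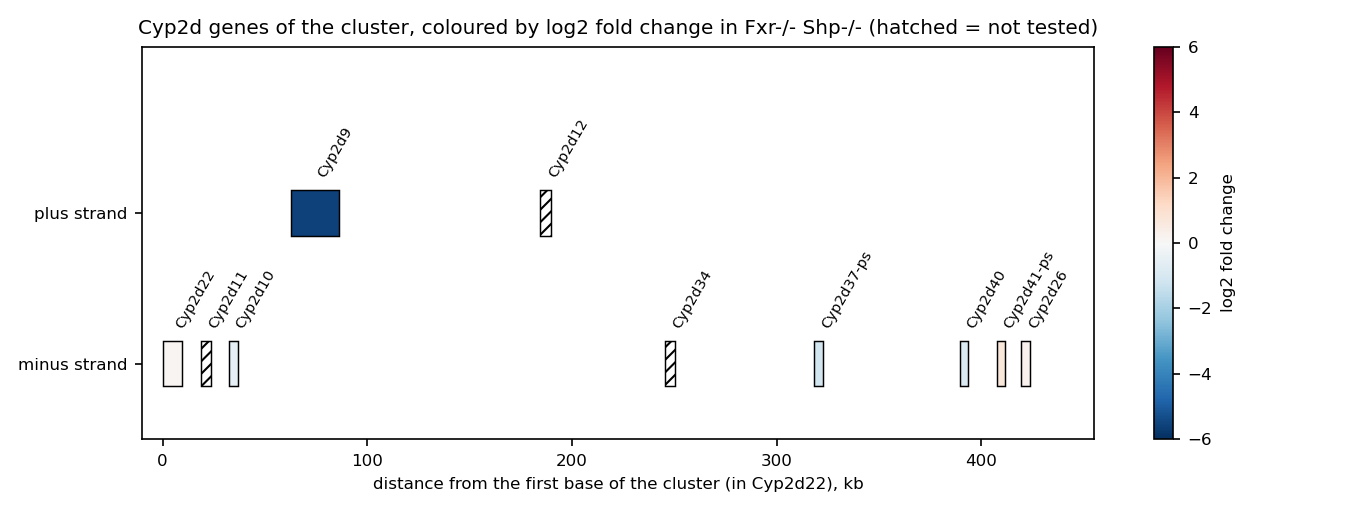
Positions of the Cyp2d genes by strand (rows) against distance from the first base of the cluster in kb, with box colour giving the log2 fold change in Fxr-/- Shp-/- livers against wild type and hatching the genes that were not tested. Cyp2d9, on the plus strand, is the only dark box, at -5.60, while its neighbour Cyp2d10 is at -0.53.

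Close copies limit how reads can be assigned. Shared sequence was counted over all stretches of 50 bases in the main annotated transcript of each gene. Of these, 40.5% in Cyp2d10, 37.2% in Cyp2d11, 29.0% in Cyp2d9, 24.1% in Cyp2d40, 10.5% in Cyp2d26 and 6.1% in Cyp2d22 also occur in another gene. At 100 bases the shares were 14.8%, 12.2%, 9.9%, 0.0%, 0.4% and 0.2%. The levels of Cyp2d9, Cyp2d10 and Cyp2d11 are therefore uncertain to the extent that such reads were left out or split, and the read length is not given in the sources used here. Annotated miRNA genes lie on the same strand within exons of Cyp2d9, Cyp2d10 and Cyp2d11. The pseudogene Gm46501 also touches exons of Cyp2d9 on the same strand, and was not among the genes counted. How much of the shares above falls in such overlapping genes, rather than in copies elsewhere, was not tested.

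The windows around the transcription start are shown for 4 genes, because Cyp2d9, Cyp2d10 and Cyp2d11 share most of this sequence while their levels and changes differ, and Cyp2d26 is the abundant member with the most distant window. Each holds 250 bases before and 50 after the RefSeq start (GRCm38.p6), on the gene's own strand, 5′ to 3′. The 4 lie at chr15:82452127-82452426 (plus), chr15:82393973-82394272 (minus), chr15:82407145-82407444 (minus) and chr15:82794196-82794495 (minus). Capitals mark matches to TATAA, to ACAAAGGGCA and to CCGGAA, on either strand. ACAAAGGGCA resembles the direct repeats bound by HNF4A and related receptors, and CCGGAA is the core bound by Ets family factors such as GABP, which has been described at the Cyp2d9 promoter. ACAAAGGGCA was read from the Cyp2d9 window itself, and all motifs were chosen after the sequences had been read.
Cyp2d9: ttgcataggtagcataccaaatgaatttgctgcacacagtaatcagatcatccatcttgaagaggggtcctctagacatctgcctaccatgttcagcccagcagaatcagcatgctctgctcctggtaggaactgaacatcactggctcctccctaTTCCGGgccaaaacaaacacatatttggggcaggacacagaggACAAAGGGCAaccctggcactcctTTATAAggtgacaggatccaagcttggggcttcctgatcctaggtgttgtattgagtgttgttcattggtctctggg
Cyp2d11: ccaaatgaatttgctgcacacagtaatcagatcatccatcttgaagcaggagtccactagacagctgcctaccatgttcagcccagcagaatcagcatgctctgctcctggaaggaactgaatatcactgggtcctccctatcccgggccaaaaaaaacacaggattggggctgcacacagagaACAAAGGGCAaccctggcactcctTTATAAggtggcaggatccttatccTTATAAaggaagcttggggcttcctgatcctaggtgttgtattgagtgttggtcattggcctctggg
Cyp2d10: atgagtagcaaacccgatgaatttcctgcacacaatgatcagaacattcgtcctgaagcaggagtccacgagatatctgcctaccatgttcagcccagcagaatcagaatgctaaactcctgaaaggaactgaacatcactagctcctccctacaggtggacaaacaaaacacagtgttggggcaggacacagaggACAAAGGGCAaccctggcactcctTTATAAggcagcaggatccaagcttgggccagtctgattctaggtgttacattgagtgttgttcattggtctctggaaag
Cyp2d26: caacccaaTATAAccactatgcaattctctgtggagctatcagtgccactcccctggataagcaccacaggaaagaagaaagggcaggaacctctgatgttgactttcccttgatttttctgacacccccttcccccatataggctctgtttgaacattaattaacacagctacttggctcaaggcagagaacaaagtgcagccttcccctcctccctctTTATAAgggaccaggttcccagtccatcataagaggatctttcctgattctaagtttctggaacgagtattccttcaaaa

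The Cyp2d9 window was 94.0% identical to that of Cyp2d11 and 85.1% identical to that of Cyp2d10, over aligned bases without gaps, and 65.9% identical to that of Cyp2d26. ACAAAGGGCA was found once, at -51 from the start in Cyp2d9, -54 in Cyp2d10, -66 in Cyp2d11 and -114 in Cyp2d40, each time upstream of TATAA, and not in Cyp2d26. Only exact matches were searched, and the Cyp2d26 window holds ACAAAGTGCA, with T in place of a G, upstream of its TTATAA. ACAAAGGGCA occurs in 39 of 32851 windows of the same length, or 0.119%. CCGGAA was found in Cyp2d9 only of the 5 windows searched, as TTCCGG at -94, and occurs in 14.9% of all windows. TATAA was found in all 5 and in 24.87% of all windows. In each of the 5 it overlaps its reverse complement TTATA as TTATAA, and Cyp2d26 also holds a match at -242 that does not. TTCNNNGAA, the element of STAT factors, matched none of the 5 and 8.3% of all windows. CAAAGTCCA, another HNF4A element, matched none of the 5 and 0.475% of all windows. The Cyp2d22 promoter was not used here.

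Cyp2d9 led the family in livers of untreated or control mice. Across the 10 groups its mean level ran from 2257 CPM in hepatocytes of chow-fed mice, through 2099 CPM in wild type, 1639 CPM in floxed mice on chow, 1532 CPM with corn oil and 1508 CPM in sham liver, to 42.7 CPM in the knockout. The highest and lowest of all 26 libraries, at 2557 and 24.0 CPM, differed 107-fold. Its libraries overlapped between chow hepatocytes and wild type, between floxed chow and corn oil, between corn oil and sham, and between TCPOBOP and high fat hepatocytes, and not between the other neighbours in that order. Divided by the length of the main transcript, Cyp2d9 stood at 1226 CPM per kb in wild type, ahead of Cyp2d26 at 443, Cyp2d10 at 398, Cyp2d22 at 84.5, Cyp2d40 at 35.2 and Cyp2d11 at 0.164 CPM per kb. The order was the same in all 5 control groups. Divided by the length of all annotated exons, corn oil alone among the control groups changed it, with Cyp2d10 ahead of Cyp2d26.

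The other members varied less. Between the lowest and highest of the 26 libraries, Cyp2d10 differed 2.81-fold, Cyp2d26 2.82-fold, Cyp2d22 2.36-fold and Cyp2d40 14.1-fold. Cyp2d26 and Cyp2d22 had their highest group means in isolated hepatocytes, at 1361 and 359 CPM on the high fat diet. Cyp2d10 was highest in hepatocytes on chow, at 769 CPM, and lowest after hepatectomy, at 312 CPM. Cyp2d40 ranged from 104 CPM in floxed mice on chow to 21.1 CPM in the knockout. Cyp2d11 gave 1 to 59 reads per library, with its highest mean of 1.00 CPM in chow hepatocytes. Of the other Cyp2d symbols, Cyp2d37-ps reached 47.7 CPM in chow hepatocytes, and Cyp2d34 gave 0 to 2 reads per library.

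**Figure D2:**
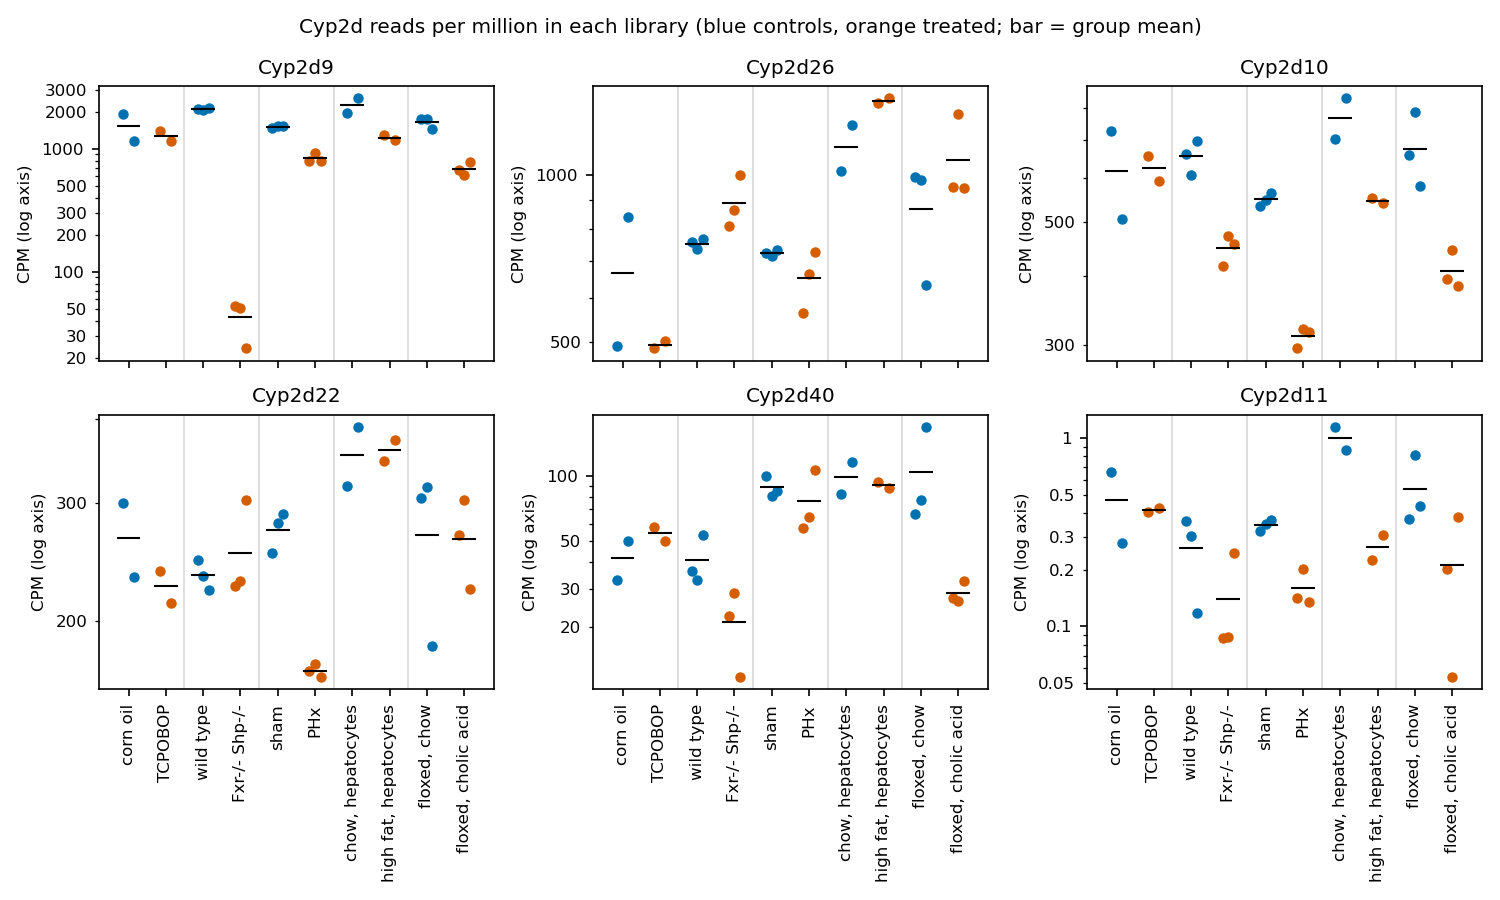
Level of each Cyp2d gene in every library, in CPM on a log axis that differs between panels, with blue points for control and orange points for treated libraries and a bar for the group mean. The 3 knockout points of Cyp2d9, at 24.0 to 53.2 CPM, stand far below every other library, where the lowest is 609.6 CPM.

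Cyp2d9 was strongly lowered, though still detected, in Fxr-/- Shp-/- livers. The wild-type libraries stood at 2099, 2056 and 2142 CPM and the knockout libraries at 53.2, 51.1 and 24.0 CPM, from 34145 to 40656 and from 587 to 1227 reads. All knockout values lay far below all wild-type values. The level fell 48.4-fold, a log2 fold change of -5.60 ± 0.31 (SE, n = 3 and 3, adjusted p = 4.8e-06). Here and below, adjusted p is from the edgeR quasi-likelihood test with Benjamini-Hochberg adjustment over all genes tested, and a gene is called raised or lowered when it is under 0.05. Cyp2d9 had the 40th lowest log2 fold change of 13473 genes. Leaving out any 1 library moved it between -5.79 and -5.30.

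Cyp2d10 and Cyp2d40 also fell in the knockout, by far less. Cyp2d10, the neighbour and close copy of Cyp2d9, was at 662, 607 and 699 CPM in wild type and at 417, 471 and 457 CPM in the knockout. The groups did not overlap and the log2 fold change was -0.53 ± 0.10 (SE, adjusted p = 0.00346). Cyp2d40 was at 36.3, 33.1 and 53.3 CPM against 22.7, 29.0 and 11.8 CPM, lowered 1.91-fold (log2 -0.93 ± 0.30, SE, adjusted p = 0.0341). That call was lost without wild type 1 (adjusted p = 0.0579), without wild type 3 (0.117) and without knockout 1 (0.0708).

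Cyp2d26 and Cyp2d22 were not lowered. Cyp2d26 was at 757, 735 and 767 CPM in wild type and at 809.6, 864 and 999.8 CPM in the knockout (log2 0.26 ± 0.11, SE, edgeR adjusted p = 0.083), with all knockout values above all wild-type values. DESeq2 called it raised, at an adjusted p of 0.0377. Cyp2d22 was at 246, 234 and 222 CPM against 225, 229 and 302 CPM, with overlapping groups (log2 0.13 ± 0.13, SE, adjusted p = 0.456). Cyp2d11 gave 2 to 7 reads in these libraries and did not pass the filter on low counts. In all, 0 of 5 members tested were raised and 3 were lowered, where 21.0% of all genes tested were raised and 19.4% lowered. The members' median log2 fold change was -0.53, against -0.01 over all genes.

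The make-up of the family's reads differed between these groups. Cyp2d9 supplied 55.5 ± 0.52% (SD, n = 3) of the reads on the 6 genes in wild type and 2.64 ± 1.14% in the knockout, and Cyp2d26 19.9 ± 0.16% and 53.8 ± 1.71%. Reads on all 6 genes together went from 3783 ± 111 to 1656 ± 134 CPM (log2 -1.17, with no test). Per kb of main transcript, the order became Cyp2d26, Cyp2d10, Cyp2d22, Cyp2d9, Cyp2d40 and Cyp2d11.

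**Figure D3:**
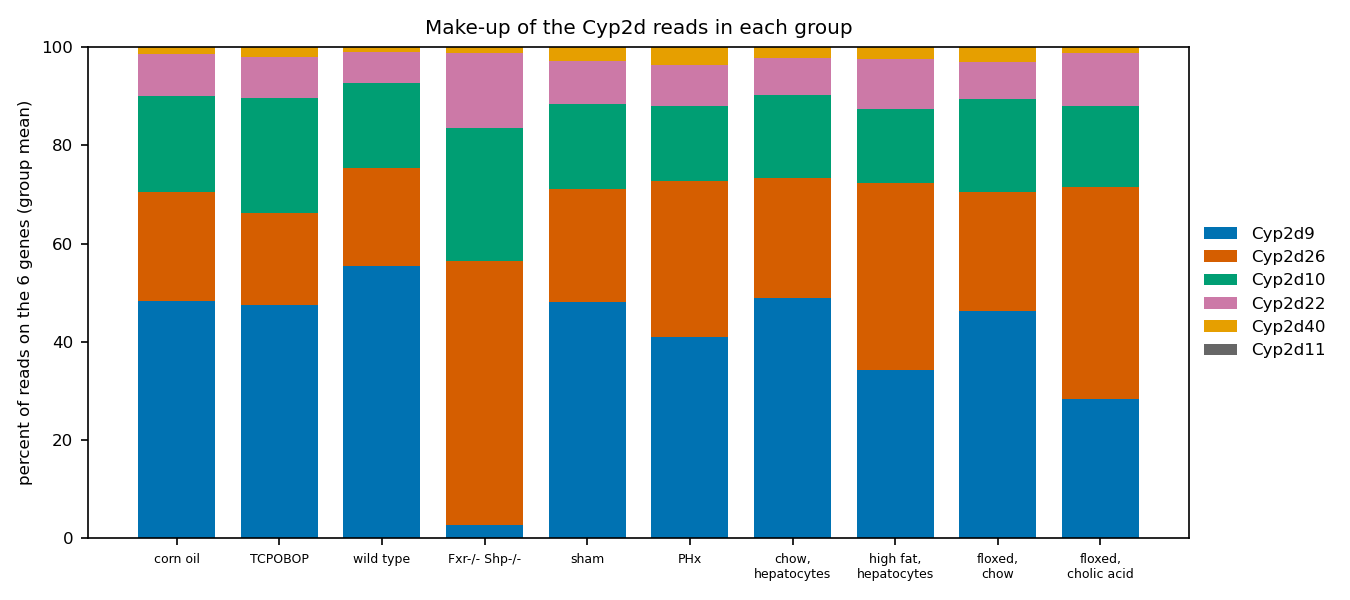
Percent of the reads on the 6 Cyp2d genes that each gene supplied, as the mean over the libraries of each of the 10 groups. The share of Cyp2d9 is 55.5% in wild type, 2.64% in Fxr-/- Shp-/- and 28.3% in floxed mice on cholic acid, where that of Cyp2d26 is 43.1%.

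Markers of other cells moved with the knockout. Of 5 stellate cell markers 4 were raised, as were 4 of 5 cholangiocyte, 2 of 6 macrophage and 2 of 5 endothelial markers, and none of any list was at 0. The 1 lymphocyte marker tested was not called. The summed stellate level ran from 176 to 287 CPM in wild type and from 376 to 435 CPM in the knockout, and the cholangiocyte level from 26.5 to 36.2 and from 54.5 to 128 CPM. Macrophage markers summed to 159 to 303 against 239 to 504 CPM, and endothelial markers to 58.6 to 110 against 107 to 155 CPM. Of 7 hepatocyte markers 3 were lowered, and their sum went from 85800 to 114000 CPM down to 61200 to 81400 CPM. Neither their part in the Cyp2d changes nor that of the unequal share of reads aligned to more than 1 place was tested. In such bulk samples, fewer cells of a type and less RNA per cell cannot be told apart.

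Partial hepatectomy lowered the 3 members Cyp2d9, Cyp2d10 and Cyp2d22, by 1.80-fold, 1.76-fold and 1.62-fold. The sham livers are labelled 0 h, so the loss of liver and the 48 h after surgery cannot be told apart, here or below. Cyp2d9 was at 1464, 1532 and 1527 CPM in sham liver and at 792, 929 and 794 CPM 48 h after surgery, lowered 1.80-fold (log2 -0.85 ± 0.09, SE, n = 3 and 3, adjusted p = 0.000396). Cyp2d10 went from 534, 547 and 564 to 297, 322 and 318 CPM (log2 -0.81 ± 0.08, adjusted p = 0.000194). Cyp2d22, often treated as the mouse counterpart of CYP2D6, went from 252, 279 and 288 to 169, 172 and 165 CPM (log2 -0.70 ± 0.08, adjusted p = 0.000643). For these 3 genes no treated library overlapped a sham library, and every call held with any 1 library left out.

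Cyp2d26 stood at 722, 714 and 732 CPM in sham and 565, 663 and 727 CPM after hepatectomy, with overlap (log2 -0.15 ± 0.10, SE, adjusted p = 0.313). Cyp2d40 was at 99.8, 80.4 and 84.7 CPM against 57.4, 64.7 and 106 CPM (log2 -0.21 ± 0.22, adjusted p = 0.496). The third PHx library stood above all sham libraries, and without it the value was -0.53 ± 0.12 (adjusted p = 0.0105). Cyp2d11, at 10 to 12 reads in sham and 5 to 7 after hepatectomy, did not pass the filter. Of 5 members tested 0 were raised and 3 lowered, against 16.4% and 14.3% of all genes, with a median of -0.70 against 0.01. Of 7 hepatocyte markers 4 were lowered, with summed levels of 126000 to 132000 CPM in sham and 96100 to 108000 CPM after hepatectomy. Stellate markers were raised in 2 of 5 cases, at summed levels of 148 to 197 against 183 to 211 CPM, as was 1 of 5 cholangiocyte markers, and 1 of 5 endothelial markers was lowered. The part of these in these changes was not tested.

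The high fat diet lowered Cyp2d9, Cyp2d10 and Cyp2d11 in isolated hepatocytes. Cyp2d9 was at 1957 and 2557 CPM on chow and at 1291 and 1171 CPM on the diet, lowered 1.87-fold (log2 -0.90 ± 0.14, SE, n = 2 and 2, adjusted p = 0.0123). Cyp2d10 went from 705 and 833 to 552 and 539.5 CPM (log2 -0.52 ± 0.10, adjusted p = 0.0217). Cyp2d11 was detected with 59 and 50 reads on chow against 15 and 20 on the diet, or 1.14 and 0.865 against 0.225 and 0.306 CPM (log2 -1.94 ± 0.34, adjusted p = 0.0166). It passed the filter on low counts in no other experiment. With 2 libraries a group, only the call on Cyp2d9 held without each library in turn. That on Cyp2d10 was lost without chow 2 (adjusted p = 0.0515), high fat 1 (0.0732) or high fat 2 (0.0656), and that on Cyp2d11 without high fat 1 (0.0808).

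Cyp2d26 was at 1015 and 1230 CPM on chow and at 1348 and 1374 CPM on the diet, with no overlap (log2 0.25 ± 0.11, SE, edgeR adjusted p = 0.156). Cyp2d22, at 318 and 388 against 346 and 372 CPM, and Cyp2d40, at 82.2 and 115 against 93.3 and 87.7 CPM, overlapped between groups (log2 -0.004 ± 0.12 and -0.15 ± 0.16, adjusted p = 0.984 and 0.51). Of 6 members tested 0 were raised and 3 lowered, against 12.9% and 11.1% of all genes, with a median of -0.34 against 0.01. The 2 groups also differed in other cells: 5 of 6 macrophage, 5 of 5 endothelial and 5 of 5 stellate markers were raised. Their sums went from 37.4 to 41.8, 37.9 to 39.8 and 9.36 to 15.5 CPM on chow to 70.2 to 75.1, 94.7 to 97.8 and 39.2 to 40.9 CPM on the diet. Of 7 hepatocyte markers 1 was lowered, with summed levels of 97400 to 102000 CPM on chow and 99400 to 102000 CPM on the diet. Of the other lists, 0 of 2 cholangiocyte markers tested and 1 of 1 lymphocyte marker were raised, and 2 of 5 and 1 of 3 were at 0 in both chow libraries. The part of these markers in the Cyp2d changes was not tested.

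Cholic acid feeding of the floxed mice lowered Cyp2d9 and Cyp2d40. Cyp2d9 was at 1734, 1737 and 1446 CPM on chow and at 674, 609.6 and 783 CPM on cholic acid, lowered 2.38-fold (log2 -1.25 ± 0.18, SE, n = 3 and 3, adjusted p = 0.0112). Cyp2d40 was at 66.4, 77.4 and 167 CPM against 27.4, 26.4 and 32.8 CPM, lowered 3.59-fold (log2 -1.84 ± 0.34, adjusted p = 0.0224). Chow library 3 stood above the other two, and the treated libraries lay below all 3. Without it the Cyp2d40 value was -1.32 and kept its call (adjusted p = 0.0042). The call on Cyp2d9 was lost without chow 2 (adjusted p = 0.0505), cholic acid 1 (0.0509) or cholic acid 2 (0.0508), and that on Cyp2d40 without cholic acid 1 (0.0868), 2 (0.0918) or 3 (0.0757).

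Cyp2d10 was at 659, 787 and 579 CPM on chow and 394, 446 and 384 CPM on cholic acid, without overlap, and missed the threshold (log2 -0.73 ± 0.18, SE, edgeR adjusted p = 0.0579). It was called by DESeq2 (adjusted p = 0.0024) and in an edgeR fit of all 26 libraries (0.000577). Cyp2d26, at 993, 979 and 634 against 952, 1290 and 949 CPM, and Cyp2d22, at 305, 317 and 183 against 268, 303 and 223 CPM, overlapped between groups (log2 0.29 ± 0.23 and -0.02 ± 0.24, adjusted p = 0.488 and 0.969). Of 5 members tested 0 were raised and 2 lowered, against 2.27% and 2.50% of all genes, with a median of -0.73 against 0.01. Of 7 hepatocyte markers 2 were lowered, though their sums overlapped at 103000 to 119000 and 98400 to 126000 CPM, and 1 of 6 macrophage and 1 of 5 stellate markers were raised. The macrophage sums were 87.1 to 251 against 211 to 350 CPM, and the stellate sums 103 to 198 against 174 to 288 CPM. Their part was not tested.

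TCPOBOP against corn oil called no member. Cyp2d9 was at 1919 and 1145 CPM with corn oil and 1396 and 1149 CPM with TCPOBOP (log2 -0.28 ± 0.32, SE, n = 2 and 2, edgeR adjusted p = 0.96), and Cyp2d26 at 493 and 841 against 488 and 502 CPM (log2 -0.44 ± 0.30, adjusted p = 0.931). The remaining values were 0.004 ± 0.24 for Cyp2d10, -0.25 ± 0.18 for Cyp2d22 and 0.37 ± 0.23 for Cyp2d40 (adjusted p = 0.999, 0.941 and 0.918). The median was -0.25, against -0.02 over all genes. The edgeR test called 0 of 12785 genes, so 0% were raised and 0% lowered, although 751 had an unadjusted p under 0.05 and DESeq2 called 109. Without the library labelled corn oil 1, whose Cyp2b10 level went against its label, a single corn oil library was left and was assumed to vary like the others. Cyp2d26 was then lowered (log2 -0.77 ± 0.14, adjusted p = 0.0127), Cyp2d9 was at 0.15 ± 0.18 and Cyp2d40 at 0.11 ± 0.14. Without corn oil 2, the only control left was corn oil 1 itself, and Cyp2d40 was then at log2 0.70 ± 0.15.

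**Figure D4:**
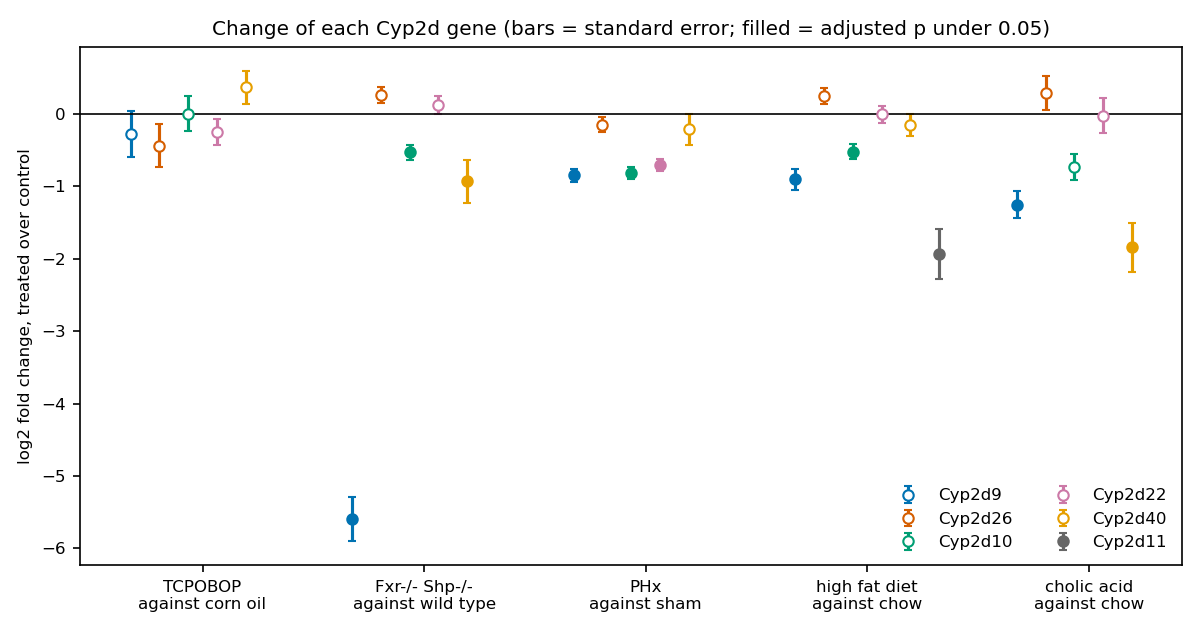
Log2 fold change of each Cyp2d gene, treated over control, in the 5 comparisons, with bars for the standard error and filled points for an adjusted p under 0.05. Filled points lie below 0 throughout, and Cyp2d9 in Fxr-/- Shp-/- livers, at -5.60, is set apart from the next lowest, Cyp2d11 on the high fat diet, at -1.94.

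The responses of the experiments were compared by testing the difference between their log2 fold changes. Strain, age, feeding and tissue differ between some of these experiments and cannot be told apart from the treatment, and the same knockout and wild-type, or cholic acid and floxed chow, libraries enter more than 1 of these differences. The Cyp2d9 change was larger in the knockout than with cholic acid by -4.34 ± 0.36 log2 units (SE, edgeR adjusted p = 1.72e-05), in a test that found 7.18% of all genes raised and 6.74% lowered. It was also larger than with the high fat diet, by -4.69 ± 0.40 (adjusted p = 3.97e-05), where 7.98% were raised and 8.11% lowered. No other member passed in these 2 tests. The difference for Cyp2d10, for one, was 0.20 ± 0.20 against cholic acid (adjusted p = 0.545) and -0.0005 ± 0.15 against the high fat diet (adjusted p = 1.0).

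Hepatectomy and cholic acid differed for Cyp2d40, by 1.64 ± 0.44 log2 units (SE, edgeR adjusted p = 0.0305), in a test with 8.01% of genes raised and 5.01% lowered. That call was lost when sham 2, sham 3, PHx 3, cholic acid 1 or cholic acid 2 was left out. For Cyp2d9 and Cyp2d22 the same difference was 0.41 ± 0.19 (adjusted p = 0.186) and -0.67 ± 0.26 (adjusted p = 0.113).

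Cyp2d9 and Cyp2d10 were set against each other within libraries, as the ratio of their reads. It was 3.21 ± 0.16 (SD, n = 3) in wild type and 0.0962 ± 0.0389 in the knockout, 2.75 ± 0.0445 in sham and 2.69 ± 0.20 after hepatectomy, and 2.45 ± 0.22 on chow and 1.71 ± 0.34 on cholic acid in the floxed mice. In hepatocytes it was 2.92 ± 0.21 on chow and 2.26 ± 0.12 on the high fat diet (n = 2 each), and with corn oil 2.45 ± 0.26 and with TCPOBOP 2.03 ± 0.13. The libraries of control and treated groups overlapped after hepatectomy only. A two-sided exact permutation test on the log2 ratio gave p = 0.1 for the knockout and for cholic acid, the smallest value that 3 against 3 allows, and 0.7 for hepatectomy. It gave 0.333, the smallest for 2 against 2, for the high fat diet and TCPOBOP. Adjusted over these 5 ratios, which were added after the data were seen, the p-values were 0.25, 0.25, 0.7, 0.416 and 0.416.

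Genes known for sex-biased expression in mouse liver gave the setting for Cyp2d9. In the knockout 15 of 15 male-predominant genes were lowered and 16 of 16 female-predominant genes tested were raised. Of all genes tested there, 19.4% were lowered and 21.0% raised. Both lists, like those below, were chosen with earlier results of these data known, so the counts are no independent sign of a direction. The male list's median log2 fold change was -6.66, or -5.83 with the gene that had no reads in any knockout library set at its bound of 3 counts per library, against -0.01 over all genes. The female list's median was 5.37, or 5.30 with the 2 genes that had no reads in any wild-type library set at that bound. Among the male genes, Mup7, a urinary pheromone carrier, went from 5462 ± 803 to 1.41 ± 2.15 CPM (SD, n = 3), and Slco1a1, an organic anion carrier, from 267 ± 38.2 to 0.173 ± 0.226 CPM. Elovl3, a fatty acid elongase, went from 145 ± 16.6 to 0.248 ± 0.323 CPM, and Hsd3b5, a steroid reductase, from 7.87 ± 5.55 to 0.0281 ± 0.0243 CPM. Of the female genes, the cytochromes Cyp2b9, Cyp2b13 and Cyp2a4 rose from 0.0798, 0.0392 and 0.618 to 309, 104 and 260 CPM. Cyp2d9, at -5.60, lay within the range of the male genes, from -11.9 to -2.11.

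On the high fat diet 15 of 15 male-predominant genes were lowered (median -3.56) and 5 of 8 female-predominant genes raised (median 2.25). Cyp2d9, at -0.90, lay above the range of the male genes, from -10.6 to -1.50. Cholic acid lowered 10 of 14 (median -3.05) and raised 1 of 8 female genes, Prom1 (median 0.72). Hepatectomy lowered 6 of 14 and raised 2, Elovl3 and Gstp1, with a median of -0.31, and lowered 4 of 10 female genes with a median of -0.17. With TCPOBOP 0 of 14 and 0 of 12 were called, with medians of -0.74 and 0.18. The all-gene medians stayed between -0.02 and 0.01. Of all genes tested, 11.1% were lowered and 12.9% raised on the high fat diet. Those shares were 2.50% and 2.27% with cholic acid and 14.3% and 16.4% after hepatectomy.

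**Figure D5:**
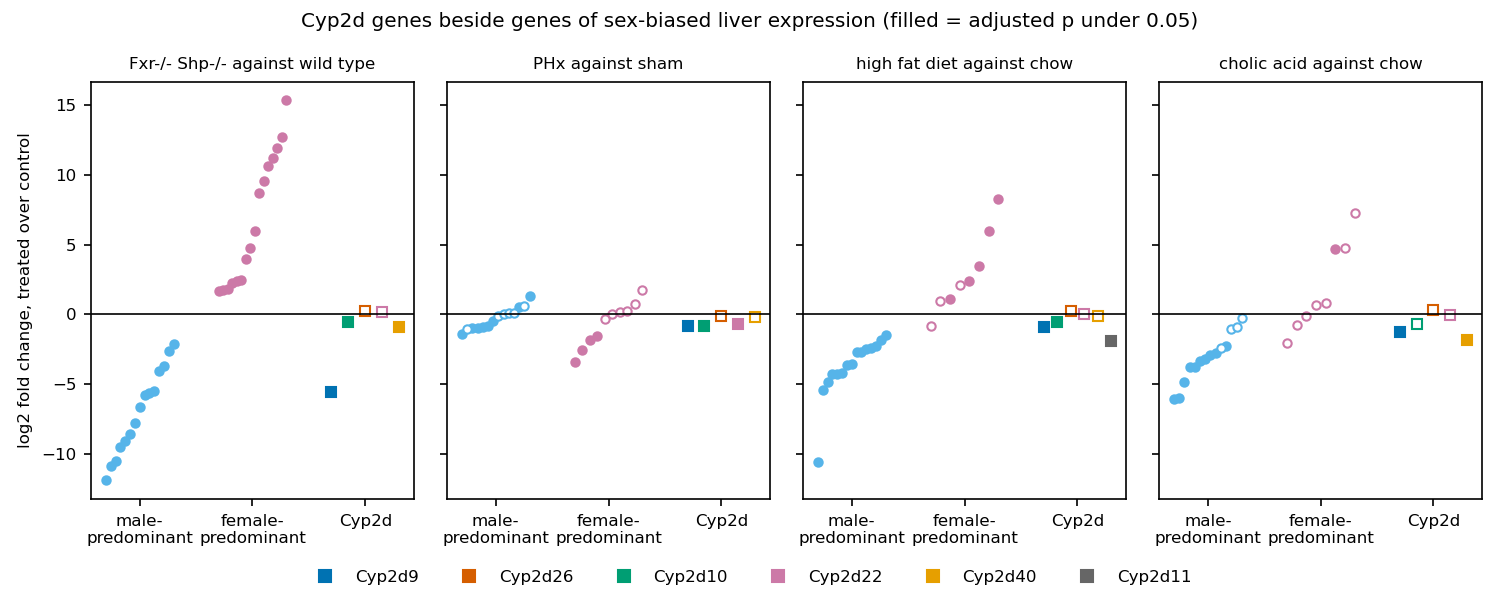
Log2 fold change, treated over control, of single genes in 4 comparisons, for 2 lists of genes with sex-biased liver expression (circles) and for the Cyp2d genes (squares), filled where the adjusted p is under 0.05. Fold changes of genes without reads in 1 group depend on the fit's prior count. In Fxr-/- Shp-/- livers the 15 male-predominant genes run from -11.9 to -2.11 with Cyp2d9 at -5.60 among them, and the other Cyp2d genes plotted run from -0.93 (Cyp2d40) to 0.26 (Cyp2d26).

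Genes of the growth hormone axis, a list that also holds an inhibitor of STAT5 signalling and a repressor of male genes, were changed in part. In the knockout Cish, an inhibitor of STAT5 signalling, was raised (log2 1.58 ± 0.26, SE, adjusted p = 0.0019), 1 of 10, and 5 of 10 were lowered (median -0.10). They were Bcl6, a male-predominant repressor (-2.39 ± 0.40, adjusted p = 0.00192), Igf1 (-1.29 ± 0.14), Ghr, the growth hormone receptor (-0.36 ± 0.11, adjusted p = 0.0333), Stat5b (-0.45 ± 0.11, adjusted p = 0.0117) and Igfals, which carries IGF1 in blood (-1.38 ± 0.24, adjusted p = 0.00256). Hepatectomy lowered 5 of 10 (median -0.62), with Ghr at -0.77 ± 0.10 and Stat5b at -0.42 ± 0.11. Among these 5 was Cux2, a female-predominant repressor of male genes, from 6.745 to 0.538 CPM (-3.65 ± 0.41, edgeR adjusted p = 0.00047). Cholic acid lowered Ghr (-1.33 ± 0.21) and Igfals (-1.55 ± 0.25). It raised Stat5b (1.00 ± 0.18) and, unlike hepatectomy, Cux2, from 0.651 ± 0.819 to 33.4 ± 24.5 CPM. The high fat diet called 0 of 10 (median 0.11), with Ghr at 0.15 ± 0.09 and Stat5b at 0.18 ± 0.10. TCPOBOP called 0 of 9 (median -0.21). Over all genes tested, 19.4% were lowered and 21.0% raised in the knockout, and 14.3% and 16.4% after hepatectomy. With cholic acid these shares were 2.50% and 2.27%.

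Liver transcription factors and nuclear receptors were lowered in 8 of 19 cases in the knockout (median -0.39), in 5 of 19 after hepatectomy with 1 raised (median -0.39), in 5 of 19 on the high fat diet with 2 raised (median -0.25) and in 3 of 19 on cholic acid with 2 raised (median -0.20). The knockout's 8 include the deleted Nr1h4 and Nr0b2, so they are no independent sign of a direction. Nr0b2 rose after hepatectomy (log2 1.99 ± 0.38, SE, adjusted p = 0.00562) and with cholic acid (1.96 ± 0.27, adjusted p = 0.00982), where Nr1h4 fell (-0.54 ± 0.17 and -1.01 ± 0.19, adjusted p = 0.0472 and 0.0219). Foxa3 and Cebpa, hepatocyte factors, fell with cholic acid (-1.41 ± 0.20 and -1.08 ± 0.24). Hnf4a, singled out after its values were seen because of its known role at CYP2D6, was lowered in the knockout (-0.78 ± 0.13, adjusted p = 0.00185) and on the high fat diet (-0.68 ± 0.14, adjusted p = 0.0233) and stood at -0.18 ± 0.08 after hepatectomy and 0.21 ± 0.21 with cholic acid (adjusted p = 0.144 and 0.572). TCPOBOP called 0 of 19 (median 0.23). The shares of all genes lowered were 19.4%, 14.3%, 11.1% and 2.50% in the knockout, hepatectomy, high fat and cholic acid tests. The shares raised were 21.0%, 16.4%, 12.9% and 2.27%.

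Of a list of electron donors and binding partners of P450 enzymes, 4 of 6 in the knockout, Cyb5a, Cyb5b, Cyb5r3 and Pgrmc1, were raised and 0 lowered (median 0.57). Cyb5r3, the cytochrome b5 reductase, went from 267 ± 18.4 to 623 ± 14.6 CPM (log2 1.25 ± 0.10, SE, n = 3 and 3, adjusted p = 3.12e-05), and Pgrmc1, a haem protein that binds P450 enzymes, from 1220 ± 76.9 to 1829 ± 77.7 CPM. Por, the P450 reductase, was at 1079 ± 281 and 791 ± 440 CPM (log2 -0.42 ± 0.34, adjusted p = 0.352). Hepatectomy lowered 3, Por (-1.09 ± 0.25), Cyb5r3 (-0.72 ± 0.10) and Pgrmc1 (-0.27 ± 0.08), and raised Cyb5r1 (0.75 ± 0.19). The high fat diet lowered Cyb5r1 (-0.55 ± 0.13) and cholic acid lowered Cyb5r3 (-0.99 ± 0.18), each 1 of 6. The medians were -0.15, -0.06 and 0.07, and -0.12 with TCPOBOP, which called 0. Among all genes tested, the knockout raised 21.0% and lowered 19.4%, and hepatectomy raised 16.4% and lowered 14.3%. The shares lowered were 11.1% on the high fat diet and 2.50% with cholic acid.

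Other cytochromes P450 of families 1 to 3 were counted in the same way. In the knockout 22 of 36 tested were raised and 6 lowered (median 0.66), the female-predominant Cyp2b9, Cyp2b13 and Cyp2a4 among those raised, with Cyp2a5, which hydroxylates coumarin, at 1.43 ± 0.18 and Cyp2e1, the ethanol-inducible form, at -0.65 ± 0.15 (SE, adjusted p = 0.000491 and 0.008). The counts raised and lowered were 2 and 13 of 35 after hepatectomy, 7 and 18 of 35 on the high fat diet, 7 and 7 of 33 with cholic acid and 0 and 0 of 38 with TCPOBOP. The medians were -0.15, -0.54, -0.02 and 0.41. Cyp2e1 was lowered in those first 3 as well, by -0.82 ± 0.12, -0.49 ± 0.11 and -1.26 ± 0.21. The shares of all genes raised were 21.0%, 16.4%, 12.9% and 2.27% in the knockout, hepatectomy, high fat and cholic acid tests. Those lowered were 19.4%, 14.3%, 11.1% and 2.50%.

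Of 9 flanking genes on the list 8 were tested, and the list left out Pheta2, 24784 bp to the left. The knockout raised Rrp7a (log2 0.34 ± 0.10, SE) and lowered Ndufa6 (-0.36 ± 0.11), the nearest gene on the left at 16205 bp. Hepatectomy lowered 3, among them Ndufa6 and Rrp7a (-0.60 ± 0.09 and -0.37 ± 0.10), the high fat diet raised Serhl (0.30 ± 0.08), and cholic acid and TCPOBOP called none. The medians were -0.02, -0.20, -0.03, -0.10 and -0.05. Among all genes tested, the knockout raised 21.0% and lowered 19.4%, hepatectomy lowered 14.3% and the high fat diet raised 12.9%. Inside the cluster, Cyp2d37-ps, a transcribed pseudogene, was lowered in the knockout, though its knockout and wild-type libraries overlapped (-1.14 ± 0.38, adjusted p = 0.0388). It was also lowered, without overlap, on the high fat diet (-0.55 ± 0.13, adjusted p = 0.0326) and with cholic acid (-2.02 ± 0.38, adjusted p = 0.0237). Cyp2d41-ps was raised after hepatectomy (1.30 ± 0.28, adjusted p = 0.00937) and lowered on the high fat diet (-1.11 ± 0.26, adjusted p = 0.0315), and Cyp2d12 was called in none of the 3 comparisons that tested it.

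Likeness to other genes was described by Pearson's r of log2 CPM over the 26 libraries, which share experiment, strain and depth in groups. For Cyp2d9 the closest were Mup3, a urinary protein, with r = 0.988, and Serpina1c, a protease inhibitor, with r = 0.976. Over the 23 libraries other than the knockout these were 0.937 and 0.743. Mup3 was lowered with Cyp2d9 in the knockout (log2 -6.88 ± 0.73, SE), after hepatectomy (-0.98 ± 0.13), on the high fat diet (-0.91 ± 0.10) and with cholic acid (-1.87 ± 0.25). Both genes belong to families of near copies whose reads may align to more than 1 place. Serpina1c, which is also 1 of the 7 hepatocyte markers, was lowered in the knockout (-3.84 ± 0.19) and with cholic acid (-1.10 ± 0.22). For Cyp2d10 the closest genes were Flad1 (0.858) and Aspscr1 (0.843), for Cyp2d26 Sgta (0.874) and Acp5 (0.839), for Cyp2d22 Prpf39 (0.863) and Vps51 (0.861), and for Cyp2d40 Mettl8 (0.918) and Alas2 (0.887). Between members r was 0.66 for Cyp2d9 and Cyp2d40, 0.656 for Cyp2d26 and Cyp2d22, 0.612 for Cyp2d10 and Cyp2d22, 0.47 for Cyp2d9 and Cyp2d10, and -0.127 for Cyp2d9 and Cyp2d26.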

How the data were processed

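RNA was extracted with RNeasy from whole livers or hepatocytes and made into TruSeq Stranded libraries, per the labels' protocols. The authors deposited 1 table of raw counts per gene. The submitters' processing notes name bcl2fastq 2.17.1.14, Trimmomatic, STAR 2.4.2a, Picard 1.119, HTSeq, GRCm38 and mm10. Whether counting used strand is not given in the sources used here. Summary lines without a gene, 23.03 to 48.61% of each library's total, were left out. Levels are CPM scaled by TMM over the 26 libraries, in which 3 counts were worth 0.0426 to 0.215 CPM.

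Each comparison was fitted alone in edgeR 4.0.16 (R 4.3.3) with its quasi-likelihood test, after a filter (minimum count 10, minimum total 15) and TMM. Differences between comparisons were fitted over both experiments. Adjusted p-values are Benjamini-Hochberg over all genes. Alternatives were DESeq2 1.42.0 (size factors and Wald test), no filter, a fit of all 26 libraries, the replicate block and leaving out each library. On simulated data with 200 changed genes, the test called 0.51% (TCPOBOP), 67.3% (knockout), 68.0% (hepatectomy), 68.4% (high fat) and 1.52% (cholic acid) of genes changed by log2 1, and 75.4%, 96.9%, 97.0%, 96.9% and 82.1% of genes changed by log2 2.

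The tests reported for each comparison used no replicate block. In the cholic acid experiment same-numbered libraries deviated together (r = 0.133, 0.155 and 0.103), and for TCPOBOP r was 0.104. The block, fitted as an alternative, kept the members' calls with cholic acid. All members were named, and of each list at most 4 genes called in the most comparisons. Other names, where few genes were called, were chosen after their values were seen. Some genes that this rule names are not reported here. For likeness the 2 genes of highest r were named, on log2 of CPM plus 0.5 among genes of mean log2 CPM of at least 1. Members and lists were chosen with earlier results of these data known. Promoters and gene coordinates came from RefSeq (GRCm38.p6) and GENCODE M21, and 5 of the 6 genes had a promoter entry.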

Additional observations from a re-analysis of the deposited data

Results flagged for a closer look

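Lines of the table that no comparison uses hold the reads that fall in more than 1 gene. Their share of reads was above that of the controls in 4 experiments. It was 1.91% in Fxr-/- Shp-/- against 1.09% in wild-type livers, and 3.54% after hepatectomy against 2.84% in sham livers. It was 2.08% in hepatocytes of the high fat diet against 1.95% on chow, and 2.57% with cholic acid against 2.02% on chow in floxed mice. How many of these reads belong to Cyp2d genes was not tested.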

How the results depend on the processing

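Every member kept its direction and its side of the threshold with DESeq2's size factors and with no filter on low counts. The fit of all 26 libraries called 9 genes for TCPOBOP (none in the fit of that experiment alone), 1735 for the high fat diet (3333) and 3132 for cholic acid (600). For the differences it called 2991 genes for knockout minus cholic acid (1939), 2749 for hepatectomy minus cholic acid (1820) and 1282 for knockout minus high fat diet (2297). DESeq2's Wald test called 109 genes for TCPOBOP and 1445 for cholic acid, and without the filter edgeR called 955 for cholic acid. Values near 0 turned sign: Cyp2d22 on the high fat diet was 0.0232 in the fit of all libraries and 0.00108 with the replicate block, Cyp2d22 on cholic acid was 0.0106 with the block, and Cyp2d26 for knockout minus high fat diet was -0.0348 in the fit of all libraries. The cause was not tested.

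With the replicate block 0, 4763, 3664, 3693 and 480 genes were called for TCPOBOP, knockout, hepatectomy, high fat diet and cholic acid, and 1536, 1497 and 1858 for the 3 differences in the order above. The block ended 1 member's call, Cyp2d40 in the knockout (-0.97, adjusted p = 0.0529), where replicate numbers are not known to pair libraries (r = -0.176, -0.038 and -0.019). In cholic acid it left Cyp2d9 at -1.25 (adjusted p = 0.0344) and Cyp2d40 at -1.73 (0.0223).

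Leaving out 1 library moved the genes called to 0 to 1233 for TCPOBOP, 3969 to 6024 for the knockout, 2554 to 4217 for hepatectomy, 1141 to 2644 for the high fat diet and 189 to 1345 for cholic acid. For the differences it gave 1325 to 2350, 1089 to 2495 and 1269 to 2768. The counts moved over 1.5 times without corn oil 1 (1233) or 2 (413), sham 2 (2554) or 3 (2575), high fat 1 (1141) or 2 (1793), and each library of the cholic acid experiment (1345 without chow 3, and 189 to 298 without another). The same held for hepatectomy minus cholic acid without sham 2 or 3 (1089 and 1171) and for knockout minus high fat diet without chow 1, chow 2 or high fat 2 (1440, 1428 and 1269). Members called ran from 0 to 1, 2 to 3, 3 to 4, 1 to 3 and 0 to 3 in the same order, and from 0 to 1 for hepatectomy minus cholic acid. Log2 values that turned sign ran from -0.60 to 0.15 (Cyp2d9) and -0.23 to 0.30 (Cyp2d10) for TCPOBOP, and from -0.013 to 0.20 (Cyp2d22) in the knockout. They ran from -0.14 to 0.13 (Cyp2d22) and -0.37 to 0.10 (Cyp2d40) on the high fat diet, and from -0.23 to 0.12 (Cyp2d22) with cholic acid. Among the differences they ran from -0.13 to 0.15 (Cyp2d26, knockout minus cholic acid) and -0.21 to 0.012 (Cyp2d10, hepatectomy minus cholic acid). For knockout minus high fat diet they ran from -0.12 to 0.10 (Cyp2d10), -0.0066 to 0.26 (Cyp2d22) and -0.12 to 0.14 (Cyp2d26). On simulated data with 200 changed genes, 0.51% and 1.52% of changes of log2 1 were called for TCPOBOP and cholic acid. The real cholic acid test called 600 genes, and the Benjamini-Hochberg cutoff depends on how many genes change. The simulated shares therefore do not settle whether members' changes of that size could be detected.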
